A study of Canis lupus familiaris with 8 samples.

Results

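MicroRNA-29a, listed on the array as cfa-miR-29a, is 1 of the 454 canine miRNAs measured and was chosen by its measured levels over the 4 cell groups of the study, so its values are given as a description, without tests. MiR-29a belongs to the miR-29 family, short RNAs that pair with the 3′ ends of messenger RNAs and lower their stability and translation. In human and mouse cells the family is best known for holding down collagens, elastin, fibrillin and other extracellular matrix genes. It also lowers the DNA methyltransferases DNMT3A and DNMT3B and the survival protein MCL1, and in mammary tumours it has been studied for its bearing on stroma, invasion and drug response.

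The samples were canine mammary adenocarcinoma cells in culture. CMT-Star (Star here) was selected from CMT-Stylo (Stylo) by raising doxorubicin, a drug that intercalates into DNA and blocks topoisomerase II, over several months until the cells withstood 100 nM. Flow cytometry was used to collect, from each line, cells bearing CD44 and aldehyde dehydrogenase activity but little CD24, which the labels name cancer stem cells (CSC). The 4 groups are therefore Star CSC and Star parent, both doxorubicin treated per the labels, and Stylo CSC and Stylo parent, both untreated, with 2 labelled samples each. All of them descend from 1 tumour line, Star is 1 derived line, and resistance cannot be told apart from any other difference that arose while it was selected. Nothing in the labels ties replicates to different cultures, so standard errors and p-values cover the spread of these samples only, which may be technical.

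The 2 Stylo parent scanner files held identical values and were counted as 1 sample, so that 7 arrays remain. Of these, 6 lay on slide 1 and Stylo CSC replicate 1 alone on slide 2, so each difference is given over the 7 arrays and again over the 6 slide 1 arrays. On slide 1 the Star arrays occupied row 2 and the Stylo arrays row 1, so line and row cannot be told apart. The parent arrays there lay in columns 1 and 2 and the CSC arrays in columns 3 and 4. Sorting and column therefore cannot be told apart either. Each array has 18160 spots for miRNAs, of which 4.19% to 8.78% stood well above background and 0 were saturated, and 54 miRNAs were well above background somewhere. None of the 8 epithelial, 4 muscle, 1 endothelial or 1 liver marker miRNAs was well above background on any array (0 of each), against 1 of 5 mesenchymal (miR-140), 2 of 8 haematopoietic (miR-155 and miR-223, both on the Stylo parent array only) and 1 of 6 neural markers (miR-138a, on Stylo CSC replicate 2 only). The absent epithelial markers include the miR-200 family, which normally marks mammary epithelium.

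MiR-29a was detected in every group. The array carries 2 probes for it, each printed as 20 spots. All 20 spots of the brighter probe stood well above background on each of the 7 arrays. Its background-subtracted signal, in arbitrary scanner units, was 82.9 ± 7.29 and 73.1 ± 8.78 on the Star CSC arrays (SD over 19 spots each). On the Star parent arrays it was 95.9 ± 6.68 (18 spots) and 90.4 ± 7.76 (17 spots). On the Stylo CSC arrays it was 64.3 ± 6.01 (19 spots, slide 2) and 45.7 ± 8.48 (20 spots), and on the Stylo parent array 39.3 ± 4.85 (19 spots). Both Star parent arrays were therefore the brightest and the Stylo parent array the dimmest before any scaling. The spots of the Stylo parent array, at 27.9 to 46.5, did not overlap those of the Star parent arrays, at 83.4 to 109 and 73.4 to 105. Spots of 1 array share 1 labelled RNA, so their spread is technical.

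The dimmer probe gave 11.0 ± 4.61 and 9.93 ± 6.75 on the Star CSC arrays and 15.8 ± 3.53 and 13.3 ± 5.64 on the Star parent arrays. It gave 26.5 ± 4.33 (slide 2) and 7.08 ± 2.68 on the Stylo CSC arrays, and 2.99 ± 2.63 on the Stylo parent array, where negative control spots averaged 1.43 to 3.14 over the 7 arrays. Over 50% of its spots (17 of 20) stood well above background on Stylo CSC replicate 1 alone, against 3 of 20 or fewer on every other array. On the 6 slide 1 arrays it reached 7.61% to 16.5% of the brighter probe, and on Stylo CSC replicate 1 it reached 41.2%. The 2 probes of miR-29a thus stood in a different proportion on slide 2. The same proportion was followed in 16 other miRNAs, and on slide 2 it lay above the slide 1 range for 9 of them, below it for 4 and within it for 3. A part of the slide or its processing in the high miR-29a value of this 1 array was not tested.

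**Figure D1:**
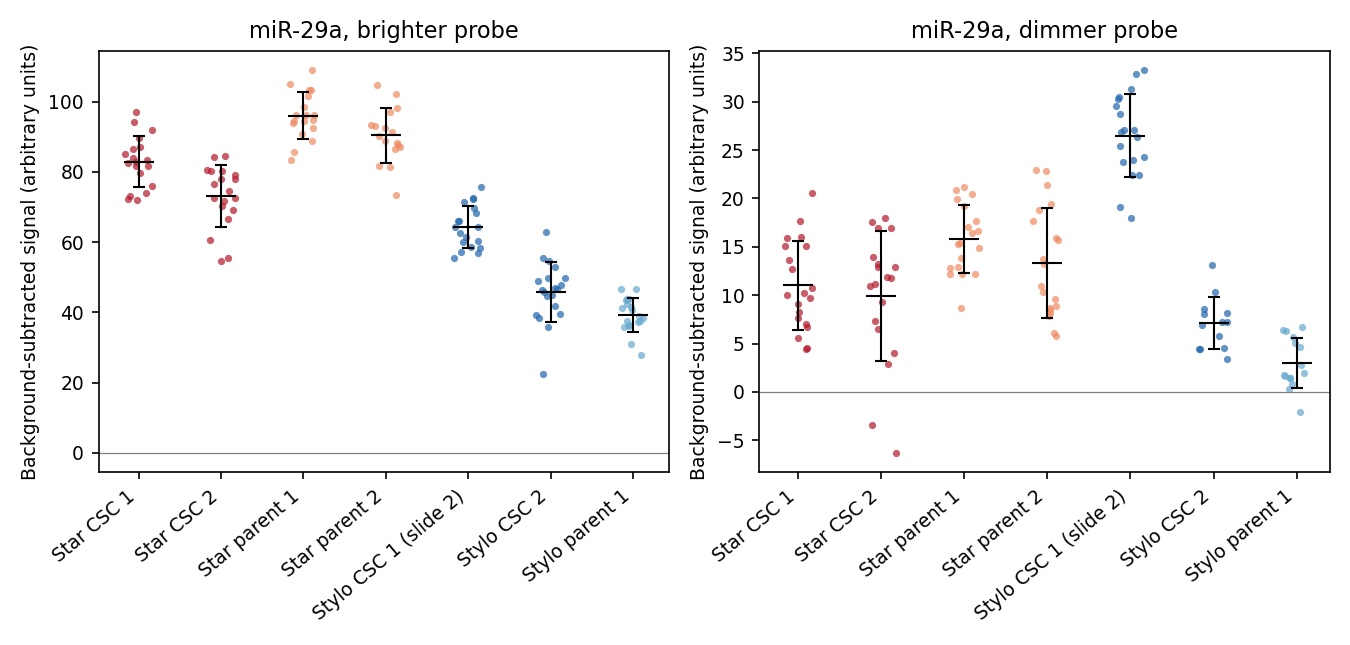
Spot signals of the brighter (left) and dimmer (right) miR-29a probe on each of the 7 distinct arrays, in background-subtracted scanner units on linear axes of different range. Each point is 1 spot, the horizontal line is the mean and the bars are 1 SD. The Star parent arrays are the highest and the Stylo parent array the lowest for the brighter probe, while for the dimmer probe Stylo CSC replicate 1 on slide 2 (26.5) lies above all others.

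The sum of both probes, before scaling, was 93.9 and 83.1 in Star CSC, 112 and 104 in Star parent, 90.8 and 52.8 in Stylo CSC, and 42.3 in Stylo parent. The arrays differed in overall brightness. The scaling factor, which is the 75th percentile of signal across 22 probes that every array measured well above background, was 500 and 452 in Star CSC and 333 and 316 in Star parent. It was 212 and 307 in Stylo CSC and 219 in Stylo parent. After dividing by it and taking log2, miR-29a was −2.41 and −2.45 in Star CSC, −1.58 and −1.61 in Star parent, −1.22 and −2.54 in Stylo CSC, and −2.37 in Stylo parent. Replicates lay close together in both Star groups, and the 2 Stylo CSC arrays were the highest and the lowest of all 7.

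Scaled within the 6 slide 1 arrays, with a percentile across 39 probes, miR-29a was −1.71 and −1.76 in Star CSC, −0.76 and −0.89 in Star parent, −1.84 in Stylo CSC and −1.86 in Stylo parent. On this scale Star parent stood apart from the other groups, which spanned −1.86 to −1.71. Below it came Star CSC, Stylo CSC and Stylo parent in that order, and these neighbours differed by no more than the 2 Star parent replicates did. With 1 array each in Stylo CSC and Stylo parent, the spread between their replicates is not known here.

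The deposited value table, which the authors made from the scanner software's totals, also had Star parent highest. Turned back into totals it held 23.4 and 20.7 for miR-29a in Star CSC, 31.6 and 29.3 in Star parent, 14.5 and 12.9 in Stylo CSC, and 11.1 and 11.0 in Stylo parent. For Stylo CSC replicate 1 the total in the scanner file was 25.7, against 14.5 in the table, so the file and the column disagree for the 1 array that stood apart. The column of Stylo parent replicate 2 also departs from its scanner values, which repeat replicate 1 (417 of 475 entries matched). Value table results for both Stylo groups rest in part on these columns. The scanner software sums only probes it detects. Its total held both probes on the Star parent arrays and on Stylo CSC replicate 1, and the brighter probe alone on the other 4 arrays. The dimmer probe thus raised the Star parent totals and widened their gap to those 4 arrays. The brighter probe alone gave 27.1 and 25.6 on the Star parent arrays, still above the Star CSC totals. Scaled to log2, the table gave −2.49 and −2.51 in Star CSC, −1.47 and −1.55 in Star parent, −2.40 and −2.45 in Stylo CSC, and −2.57 and −2.70 in Stylo parent. Both Star parent values again lay above all others, with no overlap, while on this scale both Stylo CSC values lay slightly above both Star CSC values.

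**Figure D2:**
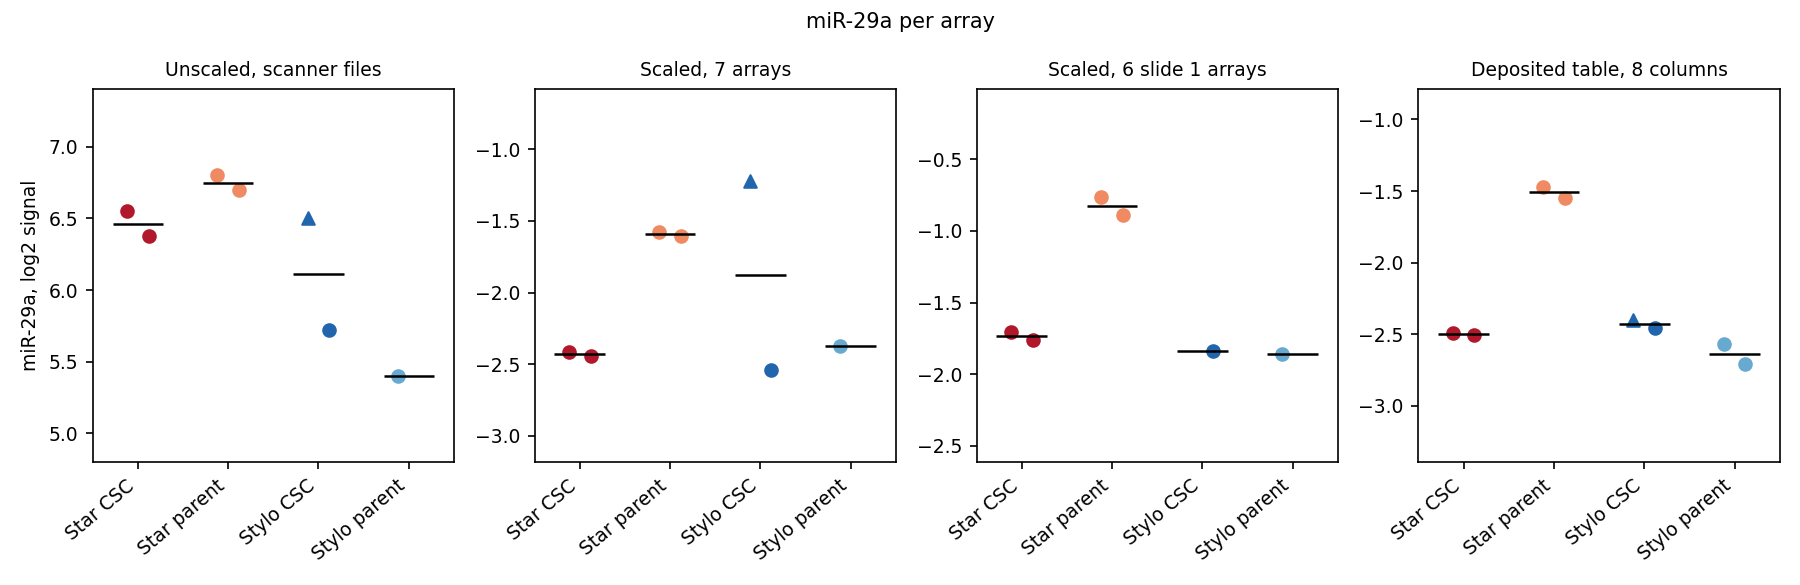
MiR-29a per array as log2 signal before scaling, after percentile scaling over 7 arrays, after percentile scaling over the 6 slide 1 arrays, and in the deposited value table with 8 columns. Each panel has its own zero and spans the same range. Points are arrays, the triangle is Stylo CSC replicate 1 on slide 2, and lines are group means. Star parent is the highest group in all panels, and the triangle moves from the top of its panel (−1.22) to the level of its replicate in the deposited table (−2.40).

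The resistant line was set against the line it came from. MiR-29a was higher in Star parent than in Stylo parent by 1.03 ± 0.07 in log2 on slide 1 (standard error of the fit, n = 2 and 1), a 2.04-fold difference. Over the 7 arrays the difference was 0.78 ± 0.58. In the value table it was 1.13 ± 0.07 (n = 2 and 2, with 1 Stylo parent column that departs from its scanner values). The larger error over 7 arrays reflects the spread of miR-29a within groups, which the 2 Stylo CSC arrays dominate. That spread was 0.538 in log2 with 3 residual degrees of freedom, and the error uses it after limma's moderation over all miRNAs tested. Among the 29 miRNAs well above background on all slide 1 arrays the slide 1 difference was the highest, ahead of miR-23b at 0.84, and the median of the 29 was −0.13. Among all miRNAs tested it was 2nd of 50 on slide 1 and 2nd of 46 over the 7 arrays. In the value table it was 10th of 56, where the median was 0.28. Without scaling the slide 1 difference was 1.35, with the median of the 29 at 0.19. Scaled to the labelling spike-in controls it was 1.34, with the median at 0.18. With a model-based background correction (normexp, which adds an offset of 50 to the signal) it shrank to 0.17 on slide 1 and to −0.029 over 7 arrays, a change of sign.

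Sorted Star cells were set against the line they were sorted from. MiR-29a was lower in Star CSC than in Star parent, with a log2 difference of −0.91 ± 0.06 on slide 1 (n = 2 and 2), which is 1.88-fold, of −0.84 ± 0.47 over the 7 arrays and of −0.99 ± 0.07 in the value table. Only miR-22, at −1.71, and miR-125b, at −0.91, were lower among the 29, whose median was −0.17. This difference is relative to the other miRNAs. Without scaling it was −0.29 while the median of the 29 was 0.46, and scaled to the spike-ins it was −0.079 while the median was 0.66. MiR-29a held the same place, the third lowest of 29, on these 3 scales, because scaling moves all miRNAs of an array together. Before scaling both Star CSC arrays were thus still below both Star parent arrays for miR-29a, with spike-in scaling the groups were close to level, and most of the 29 miRNAs (22 unscaled, 25 by spike-in) were brighter in Star CSC. Which scale holds was not tested.

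Sorted Stylo cells were set against their line in the same way. MiR-29a differed between Stylo CSC and Stylo parent by 0.019 ± 0.08 on slide 1 (n = 1 and 1), by 0.49 ± 0.58 over the 7 arrays and by 0.21 ± 0.07 in the value table (n = 2 and 2). Among the 29 it took the 11th place from the top on slide 1, near the middle. Without scaling the slide 1 difference was 0.32, against a median of 0.17 over the 29. With spike-in scaling it was 0.43, against 0.29. The value over 7 arrays rests on Stylo CSC replicate 1: without replicate 2 it was 1.15, and without replicate 1 it was 0.019. The change in Star minus the change in Stylo came to −0.93 ± 0.10 on slide 1, −1.33 ± 0.75 over the 7 arrays and −1.20 ± 0.10 in the value table. Counted from the lowest, it was 10th of 50 miRNAs tested on slide 1, 1st of 46 over the 7 arrays and 7th of 56 in the value table. The comparisons share the Star CSC, Star parent, Stylo CSC and Stylo parent arrays among them, so they are not independent of each other.

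Between the sorted populations, Star CSC and Stylo CSC, miR-29a differed by 0.10 ± 0.07 on slide 1 (n = 2 and 1), −0.55 ± 0.47 over the 7 arrays (n = 2 and 2) and −0.07 ± 0.07 in the value table. The sign turned with the slide 2 array. Without scaling the slide 1 value was 0.74, against a median of 0.61 over the 29, and with spike-in scaling it was 0.83, against 0.70. On the scaled slide 1 values the gap between the lines was thus 1.03 for parent cells and 0.10 for sorted cells, and no test of that contrast was made because miR-29a was selected on these levels.

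**Figure D3:**
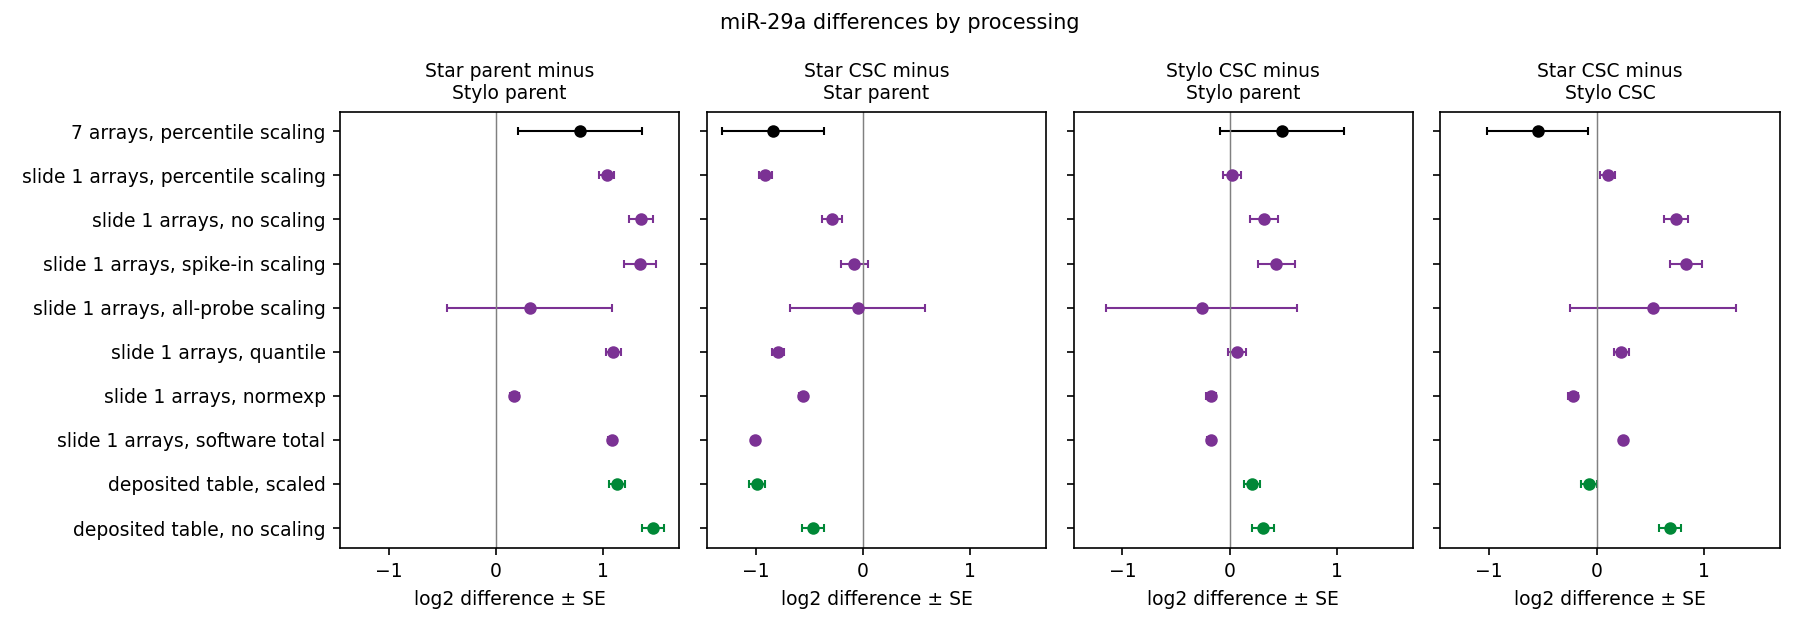
Log2 difference of miR-29a in 4 comparisons under 10 ways of processing, with bars of 1 standard error from the fit (limma, moderated over all miRNAs tested). Black is the fit over 7 arrays, purple the 6 slide 1 arrays and green the deposited value table. Star parent minus Stylo parent is above 0 in all 10, Star CSC minus Star parent is below 0 in all 10 but near 0 under spike-in (−0.079) and all-probe scaling (−0.050), and the other 2 comparisons take both signs. The all-probe factor is set by probes not well above background, and its standard error for Star CSC minus Star parent was 0.63.

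The other members of the family were not measurable. MiR-29b and miR-29c also have 2 probes of 20 spots each. None of the 268 miR-29b spots and none of the 259 miR-29c spots kept after outlier removal stood well above background (0 of each), against 151 of 256 for miR-29a, and 1 further miR-29b spot on Star parent replicate 2 did so but was an outlier. Probe means ran from −3.03 to 3.11 for miR-29b and from −2.14 to 2.50 for miR-29c, against a spread between negative control spots of 3.37 to 4.82 (SD). The software detected miR-29a on 7 of 7 arrays and the other family members on none (0). In the dog reference annotation (UU_Cfam_GSD_1.0) the gene for miR-29a, MIR29A, has MIR29B-1 as its neighbour on one side, and KLF14 on the other, and MIR29B-2 lies beside MIR29C-2. The neighbouring gene of the detected member therefore encodes a miRNA whose mature form was not well above background here. The mature sequences and shared seed of the family are not given, since no sequence table was used here.

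The miRNAs whose pattern was most like that of miR-29a were sought by Pearson's r of scaled log2 signal over the 6 slide 1 arrays, among 28 candidates well above background on all of them. The candidates had a median r of 0.03, and all arrays share the same scaling and slide. The 5 highest were miR-22 (0.84), miR-23a (0.84), miR-27b (0.83), miR-221 (0.77) and miR-23b (0.71). MiR-22 is reported to lower TET enzymes in mouse mammary tissue, miR-23 and miR-27 are transcribed together from 2 paralogous clusters, and miR-221 lowers the cell-cycle inhibitor p27 in human tumours. The 3 lowest were miR-21 (−0.84), an oncogenic miRNA that lowers PDCD4, and the let-7 members let-7a (−0.81) and let-7b (−0.79), which hold down RAS and HMGA2.

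MiR-22 differed most between sorted and parent Star cells, with −2.42 and −2.54 in Star CSC and −0.66 and −0.90 in Star parent, a difference of −1.71. In Stylo it was also lower in CSC, by −0.58, where miR-29a differed by 0.019. MiR-23b was 1.11 and 1.09 in Star CSC, 1.56 and 1.48 in Star parent, 1.43 in Stylo CSC and 0.68 in Stylo parent, so it differed by 0.84 between the parent lines, the nearest to miR-29a, and was 0.75 higher in Stylo CSC than in Stylo parent. MiR-27b differed by 0.49 between the parent lines and by −0.65 between Star CSC and Star parent, and miR-23a by 0.51 and −0.23. Scaled to the spike-ins, the Star CSC difference of these 2 turned positive, to 0.18 and 0.60, as it did for miR-23b (0.40) and miR-221 (0.090), while that of miR-22 was −0.88. MiR-21 ran the other way, with −0.82 and −0.86 in Star CSC, −1.14 and −1.32 in Star parent, −1.02 in Stylo CSC and −0.81 in Stylo parent.

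These likenesses rest on the 2 Star parent arrays. Without them, over 4 arrays, r was −0.82 for miR-22, 0.55 for miR-23a, −0.75 for miR-27b, −0.42 for miR-221 and 0.20 for miR-23b, while let-7a turned to 0.79, miR-21 to 0.39 and let-7b stayed at −0.44. With the slide 2 array added, over 7 arrays, miR-23a (0.86) and the let-7 members (−0.99 and −0.81) kept their sign, while miR-27b (−0.43) and miR-23b (−0.48) turned. MiR-22, the most alike on slide 1, then had 0.17, miR-221 had 0.24 and miR-21, the least alike, had 0.0083. On unscaled values the order became miR-27b (0.91), miR-221 (0.84), miR-125b (0.81), miR-23b (0.79) and miR-23a (0.78), with the median of the candidates at 0.40, since brightness is then shared by all.

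**Figure D4:**
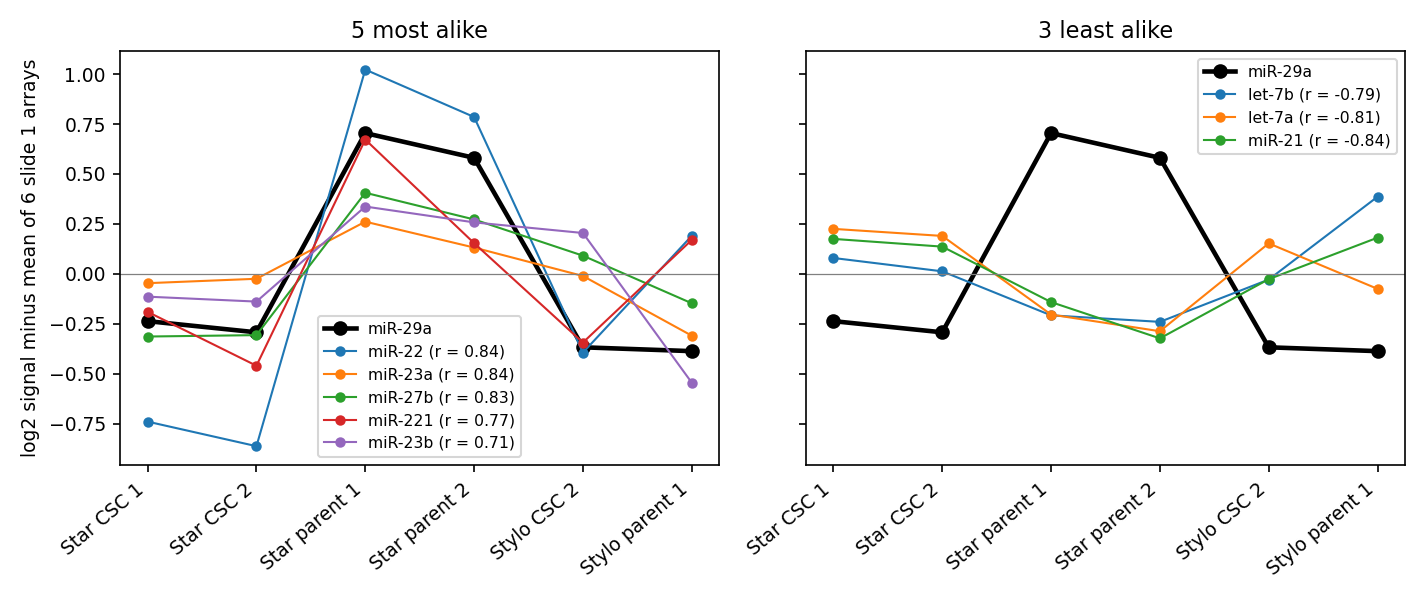
Scaled log2 signal on the 6 slide 1 arrays, minus each miRNA's mean over them, for miR-29a (black) with the 5 miRNAs most like it (left) and the 3 least like it (right) by Pearson's r. Lines join the values of 1 miRNA. MiR-29a and 4 of its 5 likes are highest on both Star parent arrays, miR-221 on 1 of them, the 3 unlike miRNAs are lowest there, and the Stylo arrays spread the likes apart.

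The miRNAs reported, mostly in human and mouse, to share targets or settings with miR-29a were counted with limma (adjusted p under 0.05 within a comparison), leaving miR-29a itself out. Over the 7 arrays few miRNAs passed at all: 2.17% of the 46 tested in Star parent against Stylo parent, 2.17% in Star CSC against Star parent, 2.17% in Stylo CSC against Stylo parent and 6.52% in Star CSC against Stylo CSC. On slide 1 the shares of the 50 tested were 40%, 52%, 34% and 46% in the same order. Counts of listed miRNAs are read against these shares. Arrays at the detection floor show no spread, so errors of miRNAs near it are too small. On slide 1 Stylo CSC and Stylo parent have 1 array each, so the error comes from the Star groups alone and the lone arrays are assumed to vary like them.

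Of 23 other miRNAs reported to lower collagens, CTGF or TGF-beta receptors (the miR-30, miR-26, miR-133, miR-19 and miR-200 groups among them), 1 was well above background on any array. This was miR-30d, and 0 of 1 passed in any comparison over the 7 arrays. On slide 1 it was −2.49 and −2.57 in Star CSC, −2.55 and −2.52 in Star parent, −2.40 in Stylo CSC and −2.31 in Stylo parent. The difference between Star parent and Stylo parent was −0.22 ± 0.04 (n = 2 and 1), with both Star parent values below the 1 Stylo parent value. It was 0.096 before scaling and 0.093 with spike-ins, a change of sign. With 1 Stylo parent array no call is given for this comparison, and miR-30d did not pass in the other 3 comparisons. MiR-30d differed by 0.0055 ± 0.04 between Star CSC and Star parent, where miR-29a was −0.91. Among the matrix-lowering miRNAs of the list, miR-29a and miR-30d were thus the ones measured.

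Of 8 miRNAs reported to promote fibrosis, 3 were measured: miR-34a, which p53 induces, miR-21 and miR-155. MiR-155, abundant in activated immune cells, was well above background only on the Stylo parent array (log2 −2.54), at least 2.08-fold lower in Star parent and at least 1.74-fold lower in Stylo CSC. It entered the fit through that 1 array, so this is a description with no call. Over the 7 arrays miR-34a and miR-21 passed in 0 of 4 comparisons. On slide 1 both were higher in Star CSC than in Star parent by limma, miR-34a by 0.40 ± 0.07 (adjusted p = 0.0253) and miR-21 by 0.39 ± 0.08 (adjusted p = 0.0409). In that comparison 52% of all 50 miRNAs tested passed. The sign on the other 2 scales adds nothing, since those scales raise all miRNAs in Star CSC together. Between Star CSC and Stylo CSC on slide 1 miR-34a differed by 0.51 ± 0.08 (n = 2 and 1). With 1 Stylo CSC array no call is given for this comparison. Beside these, miR-29a stood at −0.91 in Star CSC against Star parent.

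Of 9 other miRNAs reported to lower MCL1, miR-125b, miR-193a and miR-16 were measured. Over the 7 arrays 0 of 3 passed in any comparison. On slide 1 miR-125b was 0.64 and 0.57 in Star CSC, 1.58 and 1.45 in Star parent, 0.86 in Stylo CSC and 1.43 in Stylo parent. Both Star CSC values lay below both Star parent values, with a difference of −0.91 ± 0.07 (limma, adjusted p = 0.00759), and for miR-193a the difference was −0.86 ± 0.07 (adjusted p = 0.00759), against −0.91 for miR-29a. As for miR-29a, these differences came close to 0 with spike-in scaling, at −0.085 for miR-125b and −0.029 for miR-193a. Between Stylo CSC and Stylo parent, with 1 array each, miR-125b differed by −0.57 and miR-193a by −0.68, where miR-29a was at 0.019. MiR-16, a repressor of BCL2 and cyclins, was well above background on both Star CSC arrays, 1 of 2 Star parent arrays and the Stylo parent array of slide 1, and not on its Stylo CSC array. It entered the fit through groups where it was high, so no call is given for it, and the difference between Star CSC and Star parent was 0.41.

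Of 10 other miRNAs reported to lower DNA methyltransferases, miR-342 alone was measured, on 5 of 7 arrays, and 0 of 1 passed. It was well above background on both Stylo CSC arrays and not on the Stylo parent array. Of 12 other p53-linked miRNAs, miR-34a, miR-16 and miR-107 were measured, with 0 of 3 past the test over the 7 arrays. Their slide 1 values are given above for miR-34a and miR-16. MiR-107 was well above background on the 2 Star CSC arrays only and lay at or next to the floor everywhere. Of the marker miRNAs of other cell types, miR-223 and miR-155 were measured in Stylo parent alone and miR-138a on Stylo CSC replicate 2 alone. Each entered the fit through the 1 array where it was high, so calls for them in any comparison are not given, and their part in the miR-29a values was not tested. MiR-140, the mesenchymal marker, was well above background on 6 of 7 arrays and passed in 0 of the 4 comparisons over 7 arrays and on slide 1.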

How the data were processed

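Each 1-colour Agilent miRNA array received Cy3-labelled product of 100 ng total RNA, per the labels' protocols. The deposited scanner files give the intensity of each spot after background subtraction in Agilent Feature Extraction 11.5.1.1, per the submitters' processing notes, and a summed total for each miRNA. The authors' value table gives these totals in log2, centred per miRNA and shifted per array. The labels do not state that shift. The table's direction was settled against the scanner files: 475 of 475 entries matched (tolerance 0.01 in log2) in 6 columns, 420 in Stylo CSC replicate 1 and 417 in Stylo parent replicate 2. Medians per column were −0.941, −0.635, 0.0127, −0.116, 6.15, −0.0127, 0.293 and 6.15 (replicates 1 and 2 of Star CSC, then of Star parent, Stylo CSC and Stylo parent). The tables held 0 columns of other samples.

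Spots of a probe were averaged without control spots and outlier spots (3.84% to 9.15%). Probes of a miRNA were summed, divided by each array's 75th percentile over probes well above background on all arrays, floored at 0.0822 (log2 −3.61, on slide 1 log2 −2.99) and log2 transformed. Probes with more than 50% of spots well above background were taken as measured. MiRNAs measured on every array of a group entered the test, 46 in all (50 on slide 1, 56 in the value table) using limma 3.58.1 in R 4.3.3, in a fit of 4 group means with Benjamini-Hochberg adjustment, two-sided, with 3 residual degrees of freedom (2 on slide 1). The number of arrays limits the precision. Code was tested on simulated data. An "at least" fold is the mean of the brighter group over a bound for the dimmer one, taken per array as its own signal or, if higher, the lowest signal well above background.

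MiR-29a, the lists and the tests were chosen with earlier results of these data known. Named miRNAs were the family, the 5 most and 3 least like miR-29a on slide 1, and up to 4 detected members per list; sharing of seed bases was not used here. Alternatives covered scaling, background correction, filter, floor, outliers, software totals, slide and replicate blocks, single probes, left-out arrays and the value table.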

Additional observations from a re-analysis of the deposited data

Results flagged for a closer look

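With percentile scaling on slide 1, miR-29a differed between sorted and parent cells in Star (−0.91) and little in Stylo (0.019). Without scaling the slide 1 differences were −0.29 in Star and 0.32 in Stylo. With spike-in scaling they were −0.079 and 0.43, and with all-probe scaling −0.050 and −0.26 (standard errors 0.63 and 0.89). The all-probe factor is set by probes not well above background. The change in Star less the change in Stylo (each CSC minus parent) was taken with percentile scaling. It was −0.93 in log2 on the 6 slide 1 arrays and −1.20 in the deposited value table. Among the miRNAs tested this was the 10th lowest of 50 on slide 1 (median −0.024). In the value table it was the 7th lowest of 56 (median −0.042). On the percentile scale of slide 1 both Star CSC arrays lay below both Star parent arrays, while the Stylo CSC array lay above the Stylo parent array by 0.02. In the value table both Stylo CSC values lay above both Stylo parent values, by 0.21 on average. There, Stylo CSC replicate 1 and Stylo parent replicate 2 matched their scanner values in only 420 and 417 of 475 entries. The percentile-scaled slide 1 value for Stylo rests on 1 array per group and is smaller than its standard error of 0.084. The sign of the Stylo change turned in 6 of 29 alternatives. The difference was not tested, since miR-29a was chosen for these levels.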

How the results depend on the processing

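Values are log2 differences of miR-29a, or counts of miRNAs past limma's adjusted p of 0.05, in the order Star parent minus Stylo parent (the parent contrast), Star CSC minus Star parent (the Star contrast), Stylo CSC minus Stylo parent (the Stylo contrast), Star CSC minus Stylo CSC (the CSC contrast), and the Star minus the Stylo change (the double contrast, which has no count). Over 7 arrays they were 0.78, −0.84, 0.49, −0.55 and −1.33, with counts of 1, 1, 1 and 3 (6, 10, 7 and 7 at an unadjusted p under 0.05). Leaving out 1 array gave 0.77 to 1.03, −0.91 to −0.82, 0.019 to 1.15, −1.21 to 0.10 and −1.99 to −0.93, and counts of 0 to 32, 0 to 31, 0 to 32 and 0 to 36. The extremes of the Stylo, CSC and double contrasts came from leaving out 1 of the Stylo CSC arrays, which also raised the counts to 20, 26, 17 and 23 (without replicate 1) and 32, 31, 32 and 36 (without replicate 2). Without Stylo parent replicate 1 the comparisons that use that group have no value. Scaling over all probes, a factor set by probes not well above background, gave −0.050, 0.29 and −0.021 for the Star, CSC and double contrasts, and counts of 0. No scaling gave 1.35, −0.29 and 0.35 for the parent, Star and CSC contrasts, and counts of 0, 11, 0 and 15. Quantile normalization gave counts of 2 and 6 in the Star and CSC contrasts. Normexp correction gave −0.029 for the parent contrast, a change of sign, −0.55 for the double contrast, and counts of 0, 4, 0 and 1. It was run on the median spot signal, as the files have no mean signal. Software totals gave −1.99 for the double contrast and counts of 0. Without the filter counts were 6, 0, 6 and 0, with a lower floor the Stylo count was 0, and with outlier spots kept those of the parent, Star and Stylo contrasts were 2, 3 and 2. Slide as a block gave −0.17, 0.11 and −0.67 for the Stylo, CSC and double contrasts, and counts of 32, 31, 21 and 26. The dimmer probe alone gave 1.22, −1.22 and −2.17 for the same 3. Star CSC, Stylo CSC replicate 2 and Stylo parent lay at the floor of that fit. The values 1.22 and −1.22 thus rest on Stylo CSC replicate 1 on slide 2, and −2.17 rests on it in part. The replicate block gave 1.01, −0.84, 0.72, −0.55 and −1.56, with counts of 0, 0, 0 and 0. The deviations of same-numbered arrays had r = −0.36, −0.05 and −0.03 over 46 miRNAs. The values −0.05 and −0.03 involve Stylo CSC, whose replicates lie on different slides, so these r cannot settle whether same-numbered arrays are paired. The value table gave counts of 18, 20, 17 and 11. The following were chosen after seeing the data. The value table without scaling gave 1.46, 0.68 and −0.78 for the parent, CSC and double contrasts, and counts of 17, 20, 13 and 31. Spike-in scaling gave 1.34, −0.079, 1.84 and −1.92 for the parent, Star, Stylo and double contrasts, and counts of 0, 0 and 1 for the parent, Stylo and CSC contrasts. On slide 1, no scaling gave 1.35, −0.29, 0.74 and −0.61 and spike-ins 1.34, −0.079, 0.83 and −0.51 for the parent, Star, CSC and double contrasts. All-probe scaling gave −0.050, −0.26, 0.52 and 0.21 for the Star, Stylo, CSC and double contrasts, quantile normalization 0.23 for the CSC contrast, and normexp 0.17, −0.17 and −0.39 for the parent, Stylo and double contrasts. Software totals gave −0.18 and 0.24 and the brighter probe alone −0.083 and 0.13 for the Stylo and CSC contrasts. The cause of these shifts was not tested. In all, the sign changed in 1 of 29, 0 of 30, 6 of 29, 11 of 30 and 1 of 29 alternatives.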
